A study of Homo sapiens with 18 samples.

Results

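The KLF and SP transcription factors described here are 10 genes of 1 zinc finger family, KLF2, KLF4, KLF5, KLF6, KLF9, KLF10, KLF11, KLF15, SP1 and SP3. They were taken by gene symbol, each was represented by 1 probe set, and together they make up 10 of the 17687 genes with a symbol on the array. All 10 were tested, since no filter on low signals was applied. The cells were SKOV-3, a human ovarian carcinoma line, transiently transfected with plasmids. SKOV-3-EV cells (EV cells) carried the empty vector and SKOV-3-AA cells (AA cells) PEA-15AA, a PEA-15 that cannot be phosphorylated. SKOV-3-DD cells (DD cells) carried PEA-15DD, a phosphomimetic PEA-15. Cells of each kind stayed in medium or received 15 µM cisplatin, which crosslinks DNA, and RNA was taken after 24 h. This made 6 groups of 3 Clariom S arrays. No source states that the arrays of a group are separate cultures, and p-values then cover only the spread between these arrays, which may be technical. Arrays read the RNA of all cells, so that a large change in few cells and a small change in many cannot be told apart. The titles of the untreated EV arrays name both medium and cis, whereas their other labels give medium and no cisplatin, and they were taken as untreated.

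SP1-like and Krüppel-like factors share a run of zinc fingers at the carboxyl end that binds GC-rich elements, above all the GC box and the CACCC box. The parts in front of the fingers differ and bring coactivators such as CREBBP or corepressors of the SIN3A and CTBP kind to the promoter. SP1 is present in most cells and keeps many genes without a TATA box active, whereas SP3 binds the same boxes and can activate or repress. KLF4, KLF6, KLF10 and KLF11 are known for restraining growth and KLF5 for promoting it in epithelial cells, and several KLF genes belong to the genes induced quickly by serum, stress or transforming growth factor beta.

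Because these factors bind GC boxes, the stretch in front of their own genes is shown for KLF2 and KLF4, which were higher after cisplatin, and for SP1, which was lower. The sequences are from RefSeq on GRCh38.p14 and end at the base before the outermost annotated transcription start. Capitals mark GC boxes, GGGCGG on either strand, and in KLF2 also its match to the MEF2 site, the element through which the MAP2K5 and MAPK7 kinases act on this gene.
KLF2, chr19:16324576-16324825, plus strand: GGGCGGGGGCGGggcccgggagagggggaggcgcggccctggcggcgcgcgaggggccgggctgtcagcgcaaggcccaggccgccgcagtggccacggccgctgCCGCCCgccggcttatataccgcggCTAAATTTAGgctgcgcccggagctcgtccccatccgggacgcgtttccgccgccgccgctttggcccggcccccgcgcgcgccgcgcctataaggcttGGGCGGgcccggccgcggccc
KLF4, chr9:107489770-107490019, minus strand: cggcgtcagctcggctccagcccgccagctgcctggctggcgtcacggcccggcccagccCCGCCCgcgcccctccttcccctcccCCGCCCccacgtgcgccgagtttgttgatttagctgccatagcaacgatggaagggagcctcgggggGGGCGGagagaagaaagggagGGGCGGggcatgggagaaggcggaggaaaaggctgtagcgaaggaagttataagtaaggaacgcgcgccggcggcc
SP1, chr12:53379926-53380175, plus strand: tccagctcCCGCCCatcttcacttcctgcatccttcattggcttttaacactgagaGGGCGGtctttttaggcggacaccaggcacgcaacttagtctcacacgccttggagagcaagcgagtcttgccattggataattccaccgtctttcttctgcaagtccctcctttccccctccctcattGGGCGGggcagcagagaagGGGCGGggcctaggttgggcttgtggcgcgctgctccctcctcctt

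Each of these 3 stretches held 4 GC boxes. Promoter entries were found for 9 of the 10 genes, all but KLF10, and 8 of the 9 had a GC box in the 250 bases in front of at least 1 start, KLF9 being the exception. Among all 35116 promoter entries in that source 42.6% held one. SP3 had 3 entries and KLF5, KLF11 and SP1 had 2 each, so a count over genes takes any of their entries while the share is per entry. The CACCC box was found in KLF5, KLF11 and SP3, 3 of 9 genes, against 54.7% of all entries. KLF11, an early response gene of transforming growth factor beta, was the one gene with a complete cyclic AMP response element, TGACGTCA, which 1.65% of all entries held. It is shown in capitals with its neighbours because it is the rarest match among the members.
KLF11, chr2:10044034-10044063, plus strand: atttccagccaTGACGTCAccccggtcctg

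The last bases of that element are shared with the CACCC match of KLF11. The MEF2 site was found in KLF2 alone and in 2.80% of all entries, and TATAAA in KLF5 alone and in 10.7%. The AP-1 element TGANTCA, the CArG box and the glucocorticoid response element were in 0 of 9 genes and in 6.57%, 1.16% and 0.00285% of entries. These are matches of letters in a window and say nothing of whether a factor was bound.

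Signals are the deposited values on a log2 scale, so that a difference of 1 is a doubling. A gene is called higher or lower, or said to have risen or fallen, where limma over all 21448 probe sets gave a Benjamini-Hochberg adjusted p under 0.05. Signals of different probe sets depend on the probes and are not compared with each other. As a background, 612 negative control features on each array had their 95th percentile between 6.30 and 6.95 in untreated and between 6.80 and 7.62 in treated cells. That percentile was on average 0.46 higher after cisplatin, and the negative median was 0.19 higher. The median of all probe sets was 6.53 to 6.61 before and 6.33 to 6.44 after treatment. Arrays 2 and 3 of cisplatin-treated DD cells stood further from their group mean than other arrays, at a root mean square distance of 0.31 each, against 0.14 to 0.25 elsewhere. Of the epithelial and ovarian carcinoma markers, KRT7, KRT8, KRT18, KRT19, EPCAM and PAX8, 6 of 9 measured, were above that negative percentile in all untreated arrays, whereas MUC16, WT1 and CDH1 were not. The fibroblast markers DCN and LUM and all 3 endothelial markers were under it in every array, whereas COL1A1 was under it in 4 of 9 untreated and 5 of 9 treated arrays, and of 4 leucocyte markers PTPRC and CD68 were above it while CD3E and CD14 were not.

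The probe set of PEA15 did not follow the constructs. Its untreated signals were 10.3, 10.1 and 10.4 in EV, 9.96, 9.80 and 10.0 in AA and 9.59, 10.5 and 12.2 in DD cells. No source used here says whether its probes lie in the part that the plasmids carry, and the labels are not checked by it. The study itself checked transfection of SKOV-3 cells on protein, by Western blot of HA-tagged PEA-15.

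Cisplatin moved 8 of the 10 factors over the 3 transfections. KLF2, KLF4, KLF6, KLF9, KLF10 and KLF11 rose, which is 6 of 10 where 36.5% of all probe sets rose. SP1 and SP3 fell, 2 of 10 where 28.7% of all probe sets fell. KLF5 and KLF15 were not called. The median log2 fold change of the 10 was 0.35, beside 0.10 over all probe sets. With the study's thresholds, at least a 2-fold change with p under 0.05 before adjustment, KLF2, KLF4 and KLF11 were higher, 3 of 10 against 6.4%, and SP1 was lower, 1 of 10 against 12.2%. All 9 treated arrays lay above all 9 untreated arrays for KLF2, KLF4, KLF10 and KLF11, 4 of 10 against 13.3% of probe sets, and below them for SP1 and SP3, 2 of 10 against 18%. With 10 genes these counts are a description beside the share over all probe sets, and nothing particular to the family is read from them.

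**Figure D1:**
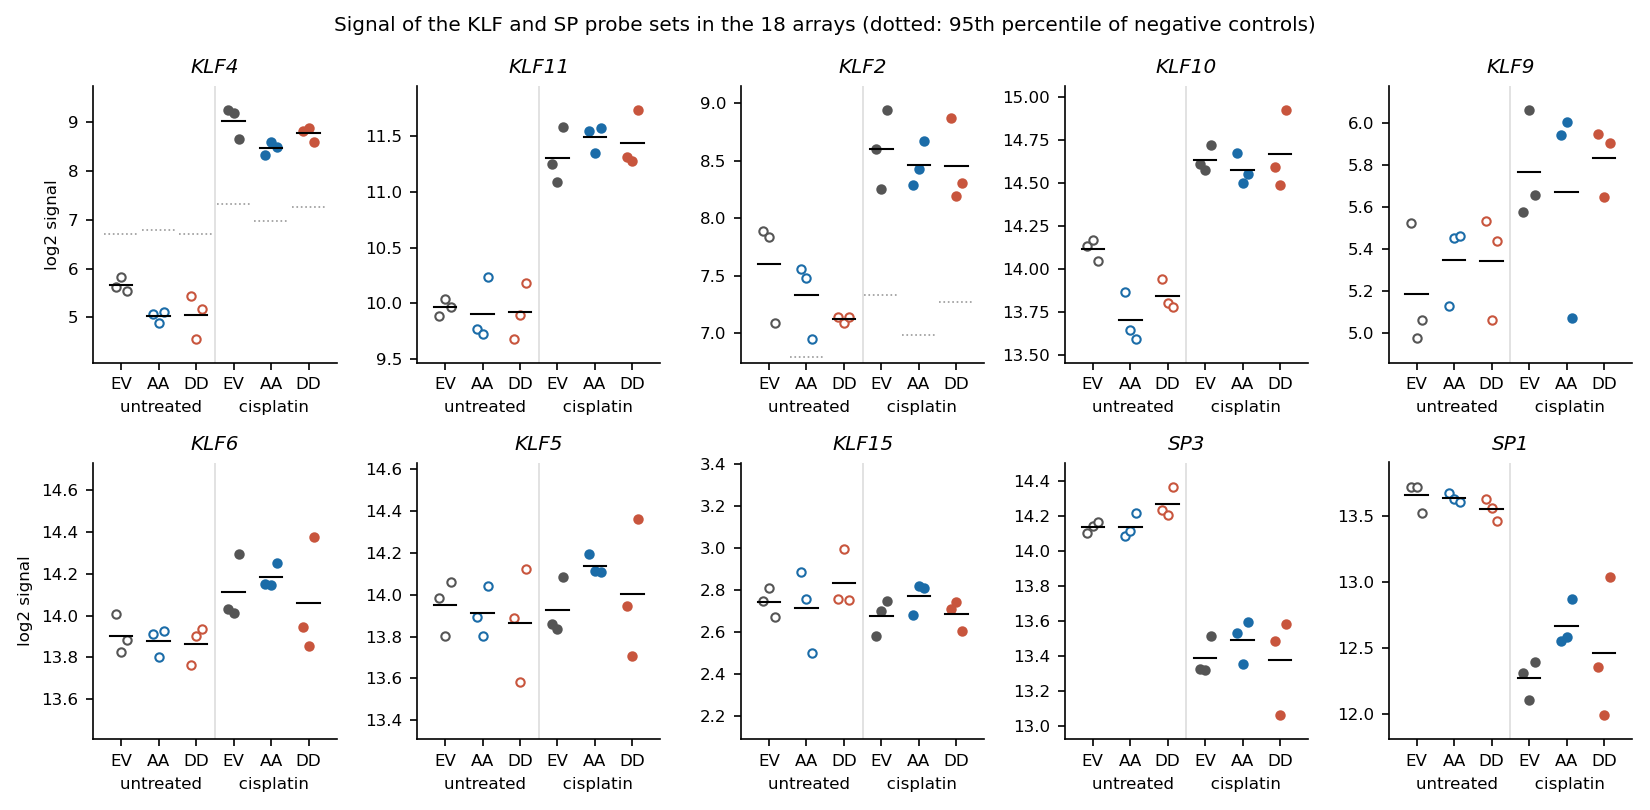
Log2 signal of each of the 10 genes in every array, open circles for untreated and filled circles for cisplatin-treated cells, with black lines at the mean of 3 arrays and dotted lines, where they fall within the panel, at the group mean of the 95th percentile of negative controls. KLF4 moved from under that percentile to above it, and KLF9 and KLF15 stayed under it throughout.

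KLF4, a reprogramming factor that arrests epithelial cells and switches on CDKN1A, had the largest change of the 10. Its untreated signals were 5.63, 5.83 and 5.53 in EV, 5.07, 4.88 and 5.11 in AA and 5.43, 4.57 and 5.17 in DD cells. After cisplatin they were 9.25, 9.19 and 8.65 in EV, 8.33, 8.60 and 8.50 in AA and 8.82, 8.89 and 8.61 in DD cells. Every treated array was higher than every untreated one, with a gap between the groups far wider than the spread within them. The log2 fold change was 3.51 ± 0.11 (SE, 9 arrays against 9, limma adjusted p = 1.46e-14). It was 3.37 in EV, 3.45 in AA and 3.72 in DD cells, each with an SE of 0.20. The untreated signal was under the 95th percentile of negative controls in 9 of 9 arrays and the treated signal in 0 of 9. The 11.4-fold rise is therefore counted from a signal not distinguished from background. The treated mean of 8.76 was 4.06-fold above that percentile in untreated arrays, at a mean of 6.74. The percentile itself was 0.46 higher after cisplatin, so the 4.06-fold is not a lower bound of the rise.

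KLF2, which holds lymphocytes and endothelial cells in a quiescent state, also rose. Its untreated signals were 7.89, 7.84 and 7.09 in EV, 7.56, 7.48 and 6.95 in AA and 7.14, 7.09 and 7.14 in DD cells. The treated signals were 8.60, 8.26 and 8.94 in EV, 8.29, 8.43 and 8.67 in AA and 8.87, 8.20 and 8.31 in DD cells. The lowest treated array, array 2 of DD cells, stayed above the highest untreated one. The log2 fold change was 1.15 ± 0.13 (SE, limma adjusted p = 5.11e-07), and in single transfections 0.99, 1.13 and 1.33 for EV, AA and DD cells.

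KLF10 and KLF11 are close relatives, both named first as genes induced early by transforming growth factor beta, and both recruit the SIN3A corepressor. KLF11 had untreated signals of 9.89, 10.0 and 9.97 in EV, 9.76, 9.72 and 10.2 in AA and 9.68, 9.89 and 10.2 in DD cells. With cisplatin it reached 11.3, 11.1 and 11.6 in EV, 11.5, 11.4 and 11.6 in AA and 11.3, 11.3 and 11.7 in DD cells. The groups did not overlap in any transfection, and the log2 fold change was 1.48 ± 0.10 (SE, limma adjusted p = 3.71e-10). KLF10 gave untreated signals of 14.13, 14.17 and 14.05 in EV, 13.87, 13.64 and 13.59 in AA and 13.94, 13.80 and 13.78 in DD cells. Its treated signals were 14.61, 14.57 and 14.72 in EV, 14.67, 14.50 and 14.55 in AA and 14.59, 14.48 and 14.92 in DD cells. The treated arrays reached about the same level in each transfection, while the untreated EV arrays started above the others. The log2 fold change of KLF10 was 0.74 ± 0.07 (SE, limma adjusted p = 6.34e-08), at 0.52 in EV, 0.87 in AA and 0.83 in DD cells.

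KLF6, a suppressor gene in several tumours that activates CDKN1A, and KLF9, which glucocorticoid and thyroid hormones induce, moved less. KLF6 ranged from 13.76 over a median of 13.90 to 14.01 in untreated and from 13.86 over 14.14 to 14.38 in treated arrays. The groups overlapped, and the log2 fold change of 0.23 ± 0.08 (SE, limma adjusted p = 0.0141) was called over all arrays and in no single transfection. After quantile normalization it was 0.19 and no longer called (limma adjusted p = 0.052). In AA cells it was not called at 0.30 (limma adjusted p = 0.0789) but was under 7 alternatives, with adjusted p from 0.00283 to 0.0411. KLF9 ranged from 4.97 over 5.44 to 5.53 in untreated and from 5.07 over 5.91 to 6.06 in treated arrays, under the 95th percentile of negative controls in all 18. Its log2 fold change was 0.47 ± 0.13 (SE, limma adjusted p = 0.0045), about the 0.46 by which that percentile itself moved. The part of the background in it was not tested. The lowest treated array, array 3 of AA cells at 5.07, lay among the untreated ones. In AA cells KLF9 was not called at 0.33 (limma adjusted p = 0.259), and without that array the value was 0.63 (limma adjusted p = 0.0186).

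KLF5, a growth-promoting factor of epithelia, ranged from 13.58 over 13.89 to 14.12 in untreated and from 13.71 over 14.08 to 14.36 in treated arrays. The groups lay almost entirely on each other. Its log2 fold change of 0.11 (95% confidence interval -0.09 to 0.31, limma adjusted p = 0.303) missed the threshold, and with each array centred on its median, which raised the median of all probe sets from 0.10 to 0.30, it was called at 0.31 (limma adjusted p = 0.00472). KLF15, a glucocorticoid-induced regulator of amino acid and glucose metabolism, had median signals of 2.76 in untreated and 2.71 in treated arrays, below the median of negative controls in all 18, and no level can be given for it.

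SP1 and SP3, the GC box factors present in most cells, went the other way. SP1 had untreated signals of 13.72, 13.72 and 13.52 in EV, 13.67, 13.63 and 13.60 in AA and 13.63, 13.56 and 13.46 in DD cells. After cisplatin it gave 12.31, 12.10 and 12.39 in EV, 12.55, 12.58 and 12.87 in AA and 12.35, 11.99 and 13.04 in DD cells. All treated arrays were lower than all untreated ones, and arrays 2 and 3 of DD cells were the lowest and the highest of them. The log2 fold change was -1.15 ± 0.11 (SE, limma adjusted p = 3.52e-08), and it was -1.18 without those 2 arrays. In single transfections it was -1.39 in EV, -0.97 in AA and -1.09 in DD cells. SP3 had untreated signals of 14.10, 14.14 and 14.16 in EV, 14.09, 14.11 and 14.22 in AA and 14.24, 14.21 and 14.37 in DD cells. Its treated signals were 13.32, 13.32 and 13.52 in EV, 13.53, 13.35 and 13.59 in AA and 13.48, 13.06 and 13.58 in DD cells. Again the groups did not overlap, with a log2 fold change of -0.76 ± 0.08 (SE, limma adjusted p = 7.23e-08).

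The 2 arrays of cisplatin-treated DD cells that stood apart were also extreme for the family. Array 2 was the lowest of the 9 treated arrays for 6 of the 10 genes, KLF2, KLF5, KLF6, KLF10, SP1 and SP3. Array 3 was the highest for 5, KLF5, KLF6, KLF10, KLF11 and SP1. Without both arrays the log2 fold changes were 3.53 for KLF4, 1.44 for KLF11, 1.29 for KLF2, 0.71 for KLF10, 0.50 for KLF9, 0.20 for KLF6 and -0.73 for SP3, and each of these kept its call.

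Within single transfections, the calls were alike for the genes with large changes. In EV cells KLF2, KLF4, KLF9, KLF10 and KLF11 rose, 5 of 10 against 26.2% of all probe sets, and SP1 and SP3 fell, 2 of 10 against 24.3%. KLF2, KLF4, KLF10 and KLF11 rose in AA cells, 4 of 10 against 22.3%, and the same genes rose in DD cells, 4 of 10 against 20.1%. SP1 and SP3 fell in both, 2 of 10 against 23% in AA and against 22.7% in DD cells. KLF9 was called in EV cells at 0.58 (limma adjusted p = 0.0405), a call that was lost on leaving out array 2 or 3 of either EV group, with adjusted p between 0.0537 and 0.166.

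**Figure D2:**
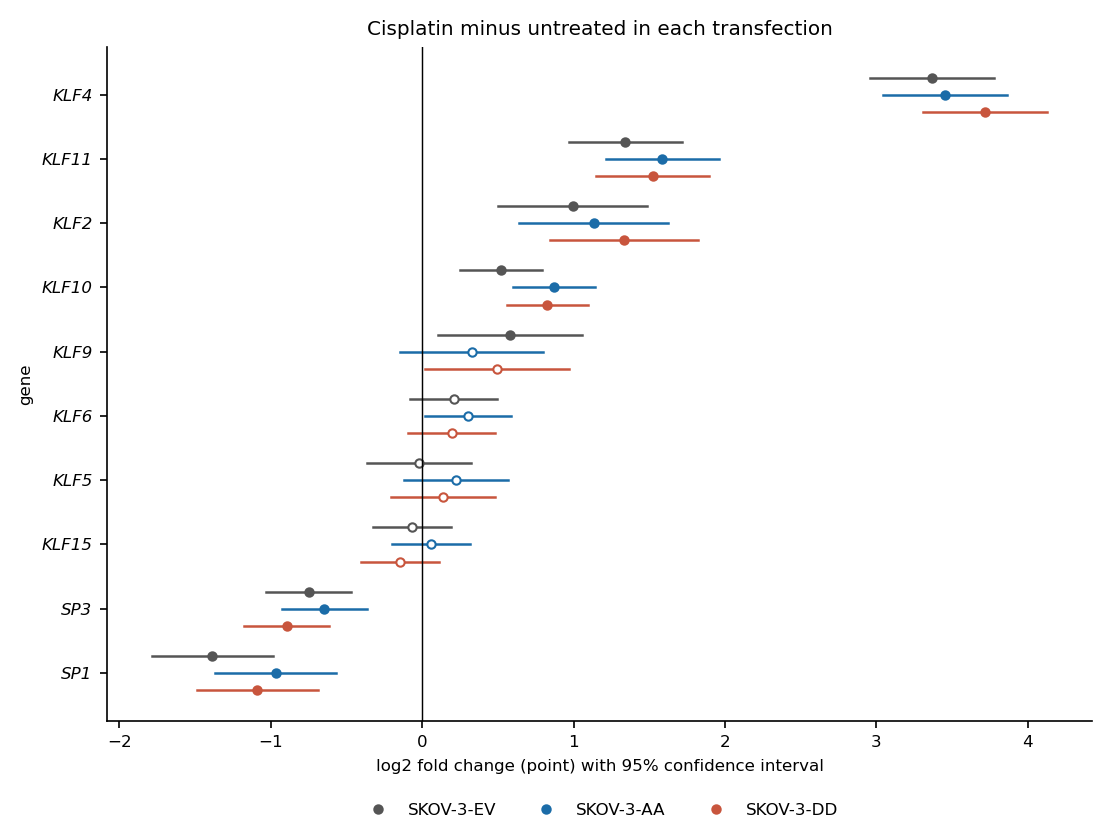
Log2 fold change under cisplatin (horizontal axis) of each gene (vertical axis) in the 3 transfections, with 95% confidence intervals from limma and filled points where the adjusted p was under 0.05. The intervals of the 3 transfections overlap for every gene, KLF4 standing far to the right at 3.37 to 3.72 and SP1 to the left at -1.39 to -0.97.

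Whether the PEA-15 mutants changed the response of these factors was tested as the difference between responses. No probe set passed the adjusted threshold for AA against EV, DD against EV or AA against DD cells, 0 of 21448 each, a share of 0%. At an unadjusted p under 0.05 limma picked 6.9%, 7.59% and 4.7% of probe sets, and 0 of the 10 genes in each. The largest differences in response were those of SP1, 0.42 less negative in AA than in EV cells (95% confidence interval -0.15 to 0.98, limma adjusted p = 0.789), and of KLF10, 0.35 larger in AA than in EV cells (95% confidence interval -0.03 to 0.73, limma adjusted p = 0.751). For KLF4 the response in DD cells exceeded that in EV cells by 0.35 (95% confidence interval -0.23 to 0.93, limma adjusted p = 0.811). These intervals leave room for a difference of the size of the KLF6 or KLF9 change.

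Levels were then compared between transfections at the same treatment. At the adjusted threshold 0 of 10 genes and 0 of all probe sets were called in each of the 6 comparisons. In untreated cells KLF4 was 0.64 lower in AA than in EV cells (95% confidence interval -1.06 to -0.23, limma adjusted p = 1) and 0.61 lower in DD than in EV cells (limma adjusted p = 0.818). All of these untreated signals were under the 95th percentile of negative controls. KLF10 was 0.41 lower in AA (limma adjusted p = 1) and 0.28 lower in DD cells (limma adjusted p = 0.902) than in EV cells. Both comparisons use the same 3 arrays of EV cells.

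KLF4 and KLF10 were thus the 2 of 10 genes at an unadjusted p under 0.05 for AA against EV cells, where 3.09% of all probe sets were, and the 2 of 10 for DD against EV cells, where 5.47% were. Between untreated AA and DD cells 0 of 10 genes were, against 3.99%, in a model that did not pair the arrays. The untreated arrays of AA and EV cells did not overlap for KLF4 and KLF10, 2 of 10 against 13.6% of probe sets. Those of DD and EV cells did not overlap for KLF4, KLF10 and SP3, 3 of 10 against 12.5%. The means of KLF4 ran from AA at 5.02 over DD at 5.05 to EV at 5.66, and the first 2 differed by less than their spread. For KLF10 the order was the same, at 13.70, 13.84 and 14.12, and AA and DD again differed by less than their spread.

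Under cisplatin KLF4 was 0.56 lower in AA than in EV cells (95% confidence interval -0.97 to -0.15, limma adjusted p = 0.263), the 1 of 10 genes at an unadjusted p under 0.05, against 12.5% of probe sets. These arrays did not overlap for KLF4, KLF5 and SP1, 3 of 10 against 18.7%. The treated means of KLF4 were 8.47 in AA, 8.77 in DD and 9.03 in EV cells, and those of DD and EV differed by less than the spread in EV. SP1 was 0.40 higher in AA than in EV cells (limma adjusted p = 0.405). For DD against EV and AA against DD cells 0 of 10 genes had an unadjusted p under 0.05, against 7.79% and 6.98% of probe sets. For KLF10 the treated means were 14.57, 14.67 and 14.63 in AA, DD and EV cells and differed by less than their spread.

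**Figure D3:**
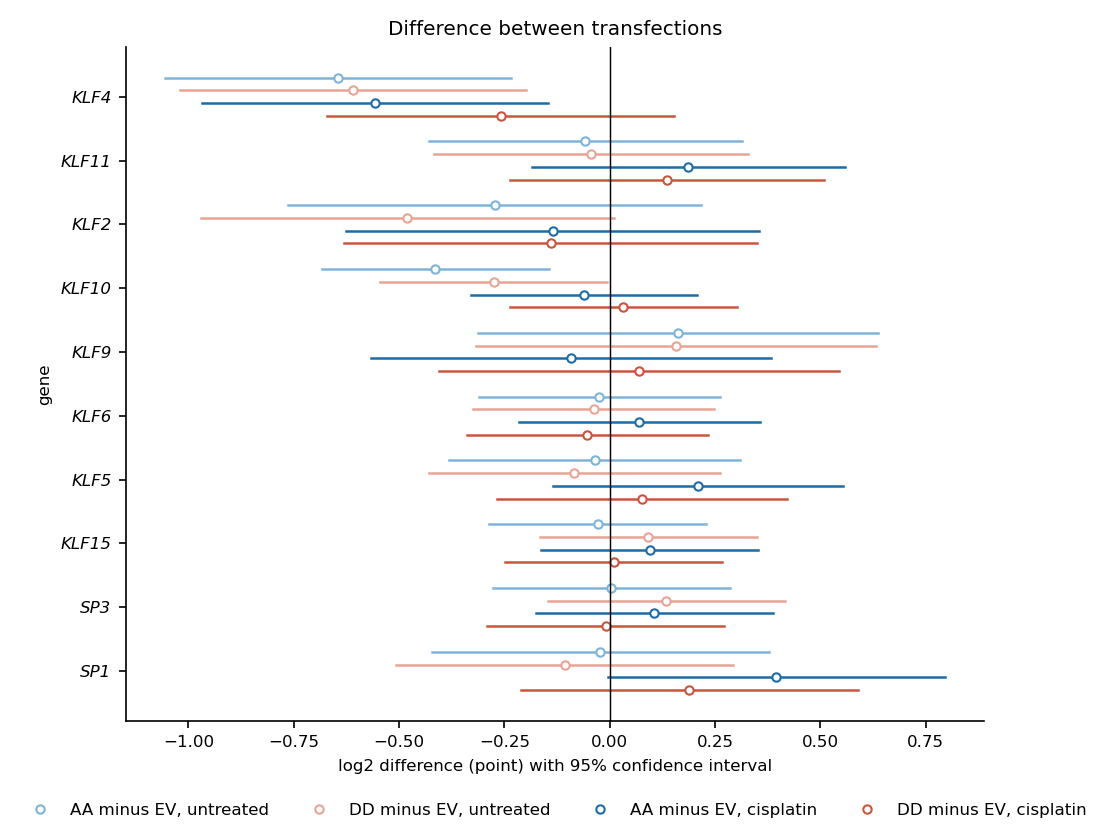
Log2 difference of AA or DD from EV cells (horizontal axis) for each gene (vertical axis), untreated in light and under cisplatin in dark colours, with 95% confidence intervals from limma. Open points stand for an adjusted p of 0.05 or more, which held for all of them, and the untreated intervals of KLF4 and KLF10 lie left of 0.

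The rest of the family was measured for 15 of 17 further genes, KLF13 and KLF18 having no symbol in the probe annotation used here. Of these 7 were higher, 5 lower and 3 not called over all transfections, beside 36.5% higher and 28.7% lower over all probe sets, with a median log2 fold change of 0.24. SP6, known from teeth and hair follicles, rose by 2.32 ± 0.17 (SE, limma adjusted p = 1.35e-09), from 7.04 to 8.22 in untreated to 9.44 to 10.51 in treated arrays. KLF12, a repressor that works through CTBP proteins, fell by 2.42 ± 0.12 (SE, limma adjusted p = 5.9e-12), from 7.75 to 8.33 down to 5.24 to 6.18, where all 9 treated arrays were under the 95th percentile of negative controls. KLF7, a widely expressed factor known from nerve growth, fell by 2.07 ± 0.08 (SE, limma adjusted p = 1.7e-13), from 13.69 to 14.01 down to 11.59 to 11.97. For these 3 genes no treated array overlapped with an untreated one.

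Smaller changes were measured in the remaining 12. KLF16 was 0.41 higher. KLF3, which works through CTBP proteins, was 0.40 lower, a call lost at -0.20 under both other scalings, and SP2 was 0.37 lower. SP4 was 0.91 lower, with signals under the 95th percentile of negative controls in all 18 arrays. KLF14 at 0.31, KLF17 at 0.24, SP7 at 0.27, SP8 at 0.33 and SP9 at 0.25 were called higher, and KLF1 at 0.29, KLF8 at 0.16 and SP5 at 0.17 were not called. All 8 of these were under that percentile in all 18 arrays, and their changes were smaller than the 0.46 by which the percentile itself moved.

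The length of the gene separated the family in part. Over the 25 measured KLF and SP genes, the 13 that were higher spanned a median of 9.21 kb from start to end in RefSeq on GRCh38.p14, and the 7 that were lower a median of 64.9 kb. KLF2 with 3.86 kb, KLF4 with 4.92 kb, KLF10 with 6.94 kb and KLF11 with 11.3 kb were short, whereas SP1 spanned 36.3 kb, SP3 64.9 kb, KLF7 99.7 kb and KLF12 620 kb. The same direction was present over all 17683 genes with a span. Split into 5 classes of equal size, the shortest genes, up to 7.24 kb, had a median log2 fold change of 0.26 with 51.6% higher and 9.84% lower, and the longest, from 86.8 kb, had one of -0.73 with 12.4% higher and 62.0% lower. SP6 with 31.4 kb and SP1 with 36.3 kb lie in the middle one of 5 span classes, whose median was 0.15, and moved in opposite directions. The part of gene length in the changes of these factors was not tested.

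**Figure D4:**
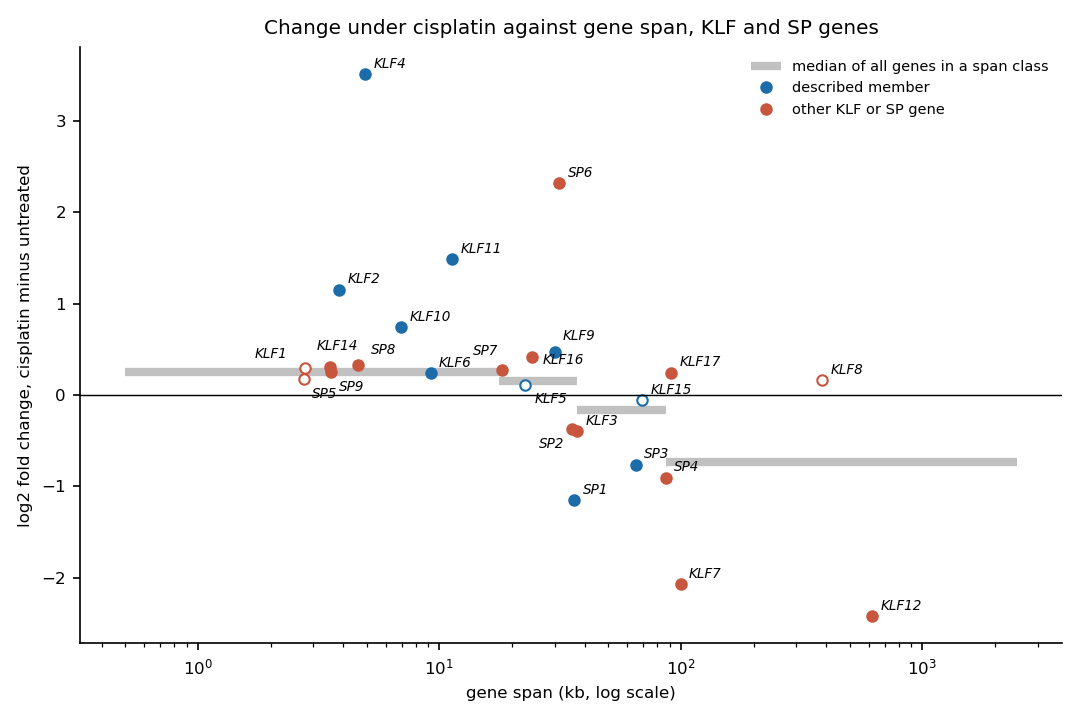
Log2 fold change under cisplatin over all transfections (vertical axis) against gene span in kb (log scale) for the 10 genes in blue and the 15 other KLF and SP genes in red, filled where the adjusted p was under 0.05. Grey bars show the median of all genes in each of 5 span classes, which runs from 0.26 for the shortest to -0.73 for the longest, and the left bar is drawn from 0.5 kb.

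The lists of cofactors, regulators and targets, here and below, were chosen with earlier results of these data known. Their counts are a description, and nothing particular to a list is read from them. Of 9 measured cofactors through which KLF and SP factors act 0 were higher and 7 lower, beside 36.5% and 28.7% of all probe sets. Their median was -0.93 beside 0.10. The spans of these cofactors ran from 16.0 kb for HDAC3 to 178 kb for CTBP2. Of all genes in the longest span class, from 86.8 kb, 62.0% were lower and 12.4% higher, with a median of -0.73. In the class below it, from 37.3 kb, 46.5% were lower and 21.9% higher, with a median of -0.16. The part of gene length in the cofactor changes was not tested. CTBP2, the corepressor bound by KLF3 and KLF12, fell by 4.16 ± 0.16 (SE, limma adjusted p = 1.79e-13), from 11.42 to 11.80 in untreated to 6.74 to 8.49 in treated arrays, 4 of 9 of them under the 95th percentile of negative controls. SIN3A, which KLF9, KLF10 and KLF11 recruit, fell by 2.46 ± 0.22 (SE, limma adjusted p = 1.76e-08), and its treated arrays spread widely from 7.46 to 10.02, with 1 of 9 under that percentile. CREBBP, a coactivator and acetyltransferase, fell by 2.18 ± 0.13 (SE, limma adjusted p = 5.24e-11). KLF10 and KLF11 thus rose in the same arrays in which the signal of their corepressor SIN3A fell.

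Of 15 genes that regulate KLF and SP factors 5 were higher and 10 lower, beside 36.5% and 28.7% of all probe sets. Their median was -0.87. MAP2K5, MEF2C and SMAD3 spanned 264, 187 and 130 kb, in the longest span class, and SRF, SIAH1 and MAPK7 10.2, 26.7 and 5.8 kb. The part of gene length in the changes of these regulators was not tested. SRF, which drives serum-induced genes through the CArG box, rose by 1.90 ± 0.13 (SE, limma adjusted p = 2.02e-10), SIAH1, a ubiquitin ligase for KLF10, by 0.99 and the kinase MAPK7 by 0.89. MAP2K5, the kinase that activates MAPK7, fell by 2.48 ± 0.12 (SE, limma adjusted p = 5.1e-12) and MEF2C, a factor that MAPK7 activates, by 2.05 ± 0.13 (SE, limma adjusted p = 1.71e-10). MAP2K5 was under the 95th percentile of negative controls in 6 of 9 untreated and 9 of 9 treated arrays, so its fall runs between signals mostly at background, and MEF2C was under it in 0 of 9 untreated and 9 of 9 treated arrays. SRF was under it in 3 of 9 untreated arrays and SMAD3 in 1 of 9 treated ones. Of the other MEF2 genes in the list, MEF2D was 0.31 higher (limma adjusted p = 0.0368) and MEF2A 0.78 lower (limma adjusted p = 4.09e-06), so the genes of the route to the MEF2 site in KLF2 did not share a direction. SMAD3, which carries the transforming growth factor beta signal to KLF10 and KLF11, fell by 2.60 ± 0.15 (SE, limma adjusted p = 4.68e-11). Of the other genes of that route in the list, TGFB1 was 0.57 higher (limma adjusted p = 1.27e-06). SMAD2 was 0.87 lower (limma adjusted p = 4.16e-09) and SMAD4 0.21 lower (limma adjusted p = 0.0304), so this route did not share a direction either.

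Of 24 measured target genes of KLF and SP factors 10 were higher and 6 lower, near the 36.5% and 28.7% of all probe sets, with a median of 0.11, also close to that of all probe sets. CDKN1A, the inhibitor of cyclin-dependent kinases that KLF4, KLF6 and SP1 are known to activate and that p53 controls as well, rose by 5.11 ± 0.15 (SE, limma adjusted p = 4.73e-15), from 5.85 to 7.35, where 2 of 9 untreated arrays were under the 95th percentile of negative controls, up to 11.45 to 12.28. TK1, a thymidine kinase with GC boxes known to bind SP1, rose by 1.03 and MYC by 0.96. CCNB1, a mitotic cyclin that KLF4 is known to repress and KLF5 to activate, fell by 1.39 ± 0.09 (SE, limma adjusted p = 2.53e-10). VEGFA and PDGFA, growth factor genes with GC boxes bound by SP1, fell by 0.90 and by 0.87, and PDGFA was under that percentile in 1 of 9 untreated and 9 of 9 treated arrays.

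**Figure D5:**
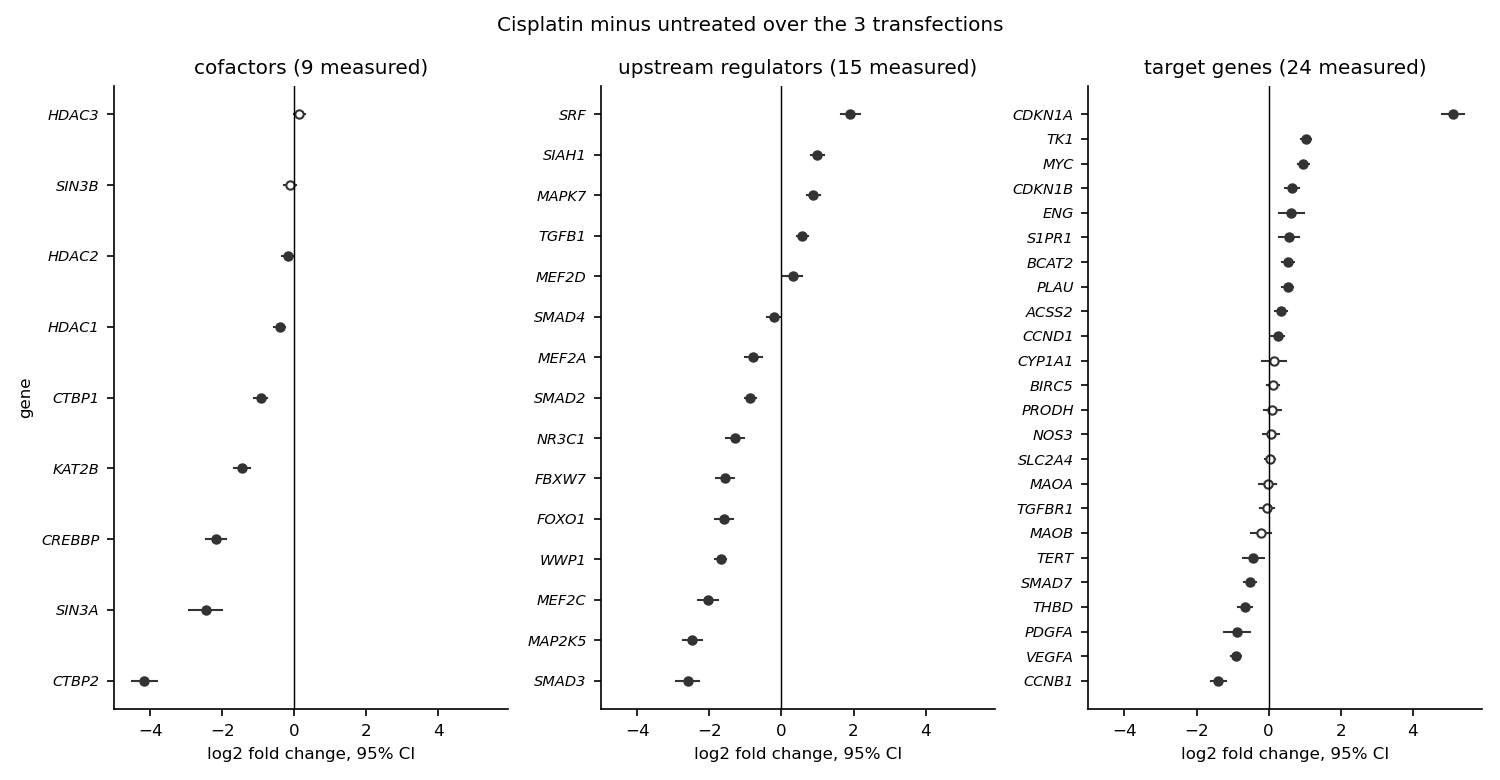
Log2 fold change under cisplatin over all transfections (horizontal axis) with 95% confidence intervals from limma for the measured cofactors, upstream regulators and target genes (vertical axes), filled where the adjusted p was under 0.05. No cofactor is on the right as a filled point, and CDKN1A stands alone at 5.11 among the targets.

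For each of the 10 genes the most similar signals over the 18 arrays were sought among 17686 other genes, as the smallest root mean square difference after centring each gene on its mean. KLF4 was closest to TRIB1, a pseudokinase, at 0.25 and to ENC1, an actin-binding protein, at 0.26, whose log2 fold changes were 3.53 and 3.28. KLF11 was closest to PIM1, a serine kinase, and to SDE2 at 0.16 each, KLF10 to RNASEH1 at 0.12 and FBXL12 at 0.14, and KLF2 to KIAA1191 at 0.23 and NOC4L at 0.25. SP1 was closest to UBAP2L at 0.09 and ZNF326 at 0.11 and SP3 to PNMA1 at 0.09 and HAT1, a histone acetyltransferase, at 0.10. For KLF5 the closest were NET1 and ZNF182, for KLF6 ZNF585B and HSPH1, for KLF9 HMGB3 and TRAPPC3 and for KLF15 OR2V1 and HECTD3, at 0.08 to 0.20. None of the closest genes of any of the 10 was another KLF or SP gene. The whole family made up 25 of the 17687 genes with a symbol, so nothing about the family is read from that absence. The 18 arrays fall into 2 treatments, and the log2 fold changes of these 20 genes lay within 0.24 of that of their member.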

How the data were processed

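RNA of 18 SKOV-3 samples was hybridised to Clariom S human arrays. The values used are the log2 signals per probe set that the authors deposited, summarised and normalized between arrays by RMA in Transcriptome Analysis Console. They were used without further normalization. Of 24351 features 2903 controls were left out, and 21448 probe sets were tested, 17709 of them with a symbol. No columns of the authors' own comparisons were used. All 18 arrays entered 1 model of 6 group means in limma 3.58.1 (R 4.3.3), and p-values were adjusted by Benjamini-Hochberg over all probe sets. The number of arrays limits the precision, with a median SE of 0.178 for a difference of 2 groups. Simulated data with known changes were used to test the code.

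The members and the lists of cofactors, regulators and targets were chosen with earlier results of these data known. Named genes are the 10 members, the other KLF and SP genes, up to 3 called genes of each list per direction with the largest change, PEA15, and the 2 closest genes of each member. Genes with several probe sets were represented by the brightest. Over 45 pairs of same-numbered arrays of different groups the deviations from the group mean correlated by -0.05 to 0.18, 8 of them over 0.1, and replicate numbers were not taken as pairs. In untreated AA and DD cells all 3 pairs were over 0.1, at 0.10 to 0.16, so for that comparison the numbers count as pairs. Its values in the Results come from the model without pairs, and it was refitted only with the replicate number as a block over all groups. Untreated EV and DD cells came close, with pairs at 0.11, 0.11 and 0.08. Motifs were searched in RefSeq promoters with Python 3.11.15, and figures drawn with matplotlib 3.10.9. Zinc finger sequences were not analysed here.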

Additional observations from a re-analysis of the deposited data

How the results depend on the processing

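The numbers of KLF and SP genes called were recomputed with each array centred on its median, quantile normalization, probe sets under the 25th percentile or the median left out, limma's trend and robust options, array weights, only the groups compared, 1 probe set per symbol, other thresholds and without each array. No call was reversed in direction among the members or, over all transfections, among the other KLF and SP genes. The other named genes were not part of this check. Of 778 recomputed counts 13 moved by over 1.5 times. Most of the 778 belong to comparisons between transfections or between responses, where 0 genes were called to begin with. All 13 that moved were counts of genes called under cisplatin, so their share of the relevant counts is larger. With a 2-fold change required, at an unadjusted or an adjusted p, 3 genes were higher and 1 lower over all transfections, 2 higher and 1 lower in EV, 0 lower in AA and 1 lower in DD cells, which follows from the added condition. With median centring 7 genes were higher in AA cells. Centring moved the median change of all probe sets from 0.10 to 0.30, and KLF5 was then called at 0.31 (limma adjusted p = 0.00472), about that shift. Quantile normalization gave KLF6 a change of 0.19 (limma adjusted p = 0.052), and KLF9 in EV cells was not called (limma adjusted p = 0.0923). KLF3 lost its call under both scalings, at -0.20 each, and KLF14, KLF17, SP8 and SP9 lost theirs under quantile normalization. KLF14 also lost its call without arrays 2 and 3 of treated DD cells (limma adjusted p = 0.0631), KLF17 with the trend and robust options (limma adjusted p = 0.0563), and KLF17 and SP9 without single arrays. KLF1, KLF8 and SP5 were called with median centring, KLF1 without array 1 of treated EV or array 2 of treated AA cells, KLF8 without array 1 of treated EV cells and SP5 without array 1 of untreated EV cells. KLF6 was called in EV and DD cells with median centring. With the replicate number as a block, 6 genes were higher and 2 lower over all transfections, as without it, and no other count of calls changed, with 0 called between untreated AA and DD cells, where the numbers pair. Dim probe sets, KLF4 before treatment and KLF9 and KLF15 throughout, limit what the arrays can show.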
